A study of Danio rerio with 30 samples.

Results

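The integrated stress response genes described here are 10 zebrafish genes: the eIF2α phosphatase subunits ppp1r15a and ppp1r15b, the transcription factors atf4a, atf4b, atf5a and ddit3, and the target genes trib3, chac1, sesn2 and asns. They were chosen by name, with earlier results of these data known. Their counts are therefore set beside the shares of all genes as a description. All 10 names, ignoring case, matched 1 row each among the 32520 genes of the count table. That table gives some zebrafish genes in capitals, as for their human counterparts. Of the 10, 9 were among the 22000 genes with enough reads to be tested. The tenth, chac1, had no read in any library.

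RNA was sequenced from neuromast cells of the posterior lateral line of larvae at 5 days post fertilization, in 4 groups of 3 libraries. The groups were isl1a psi97 mutants 3 h after neomycin (treated mutants), their siblings 3 h after neomycin (treated siblings), mutants in homeostasis without neomycin (untreated mutants) and siblings in homeostasis without neomycin (untreated siblings). All 4 groups carried the she:mcherry reporter, and all cells were dissociated with trypsin and sorted for mCherry, so every group went through that handling. Neomycin, an aminoglycoside antibiotic that kills the sensory hair cells of the lateral line, was given at 300 µM for 30 min and washed out. The labels do not say whether siblings were wild type or heterozygous, nor whether the 3 biological replicates came from separate clutches, so the p-values measure the spread between these libraries. isl1a encodes a LIM homeodomain transcription factor, and the study compared what its loss changes in resting neuromasts and during hair cell regeneration.

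The integrated stress response starts when a kinase phosphorylates the translation factor eIF2α, which slows most protein synthesis while favouring a few mRNAs, among them that of Atf4. Atf4 then raises the transcription of genes for amino acid supply, redox balance and, under lasting stress, cell death. In mammals, PPP1R15A (GADD34) is a stress-induced and PPP1R15B (CReP) a constitutive subunit that brings protein phosphatase 1 to eIF2α and so ends the response. Zebrafish carry a pair of atf4 genes, atf4a and atf4b, from the genome duplication of teleost fishes. Because Atf4 is controlled mainly by translation, its mRNA level is not a measure of its protein.

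The libraries held 23918226 to 30354161 gene counts. Counts of isl1a (listed as ISL1) were 6, 35 and 0 in treated mutants and 0, 1 and 0 in untreated mutants, against 3996, 6634 and 4591 in treated siblings and 3351, 5607 and 5189 in untreated siblings. Treated sibling replicate 2 stood apart, with a mean correlation of 0.925 to its own group and a scaling factor of 0.756 (0.917 to 1.1 in the others), so results that rest on it are given with and without it. Neuromast markers summed to between 4712 and 11779 CPM (counts scaled to a common library size) in every library. Hair cell markers (16 gene IDs) summed to 1232 to 2257 CPM in treated mutants, 2284 to 6116 in treated siblings, 13730 to 17349 in untreated mutants and 28089 to 33151 in untreated siblings. Red blood cell markers (9 gene IDs, none at 0) summed to 670 to 1376 CPM in treated mutants, 275 to 506 in treated siblings, 1058 to 1499 in untreated mutants and 121 to 210 in untreated siblings. In sorted bulk samples such as these, fewer cells of a type and less RNA per cell cannot be told apart.

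Integrated stress response genes were higher in treated mutants than in treated siblings for 5 of the 10 members: ppp1r15b, atf5a, trib3, sesn2 and ppp1r15a. None was lower. Among all tested genes, 4.9% were called higher and 4.88% lower in this comparison (edgeR quasi-likelihood test, Benjamini-Hochberg adjusted p under 0.05). The median log2 fold change of the 9 tested members was 0.82, beside −0.14 over all genes. In the mutants, 5 members were higher 3 h after neomycin than in homeostasis (ppp1r15b, atf5a, atf4b, trib3 and ppp1r15a) and none lower, where 6.95% of all genes were called higher and 9.56% lower. Their median was 0.89, beside −0.04 over all genes. The libraries of both groups did not overlap for 5 members, all higher, between treated mutants and treated siblings (12.3% of all genes, with 13.6% lower). Between treated and untreated mutants 8 members were higher and 1 lower without overlap (20.8% and 22.7% of all genes). Between treated and untreated siblings 1 member was higher, atf4b, and 1 lower, ppp1r15b, without overlap (17.5% and 17.2%). Between untreated mutants and siblings ppp1r15a, atf5a and asns were higher without overlap (14.5%, with 15.4% lower).

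In siblings, edgeR called a single member after the same treatment: ppp1r15b was lower. There 11.2% of all genes were called higher and 10.8% lower, and the members' median log2 fold change of 0.12 lay beside 0.10 over all genes. Without neomycin, no member passed the test between mutants and siblings with edgeR, although 4 of 9 had an unadjusted p under 0.05; DESeq2 called none and limma voom 2 (trib3 and asns, both higher). In that comparison edgeR called 1.85% of all genes higher and 1.72% lower, and the medians were 0.38 for the members and 0.01 for all genes. Higher and lower together, DESeq2 called 8.07% of all genes there and limma voom 14.4%. The difference between the mutant and the sibling response to neomycin was called by edgeR for 1 member, ppp1r15b, where 0.1% of genes were called higher and 0.00455% lower. These comparisons share libraries, so they are not independent of each other.

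**Figure D1:**
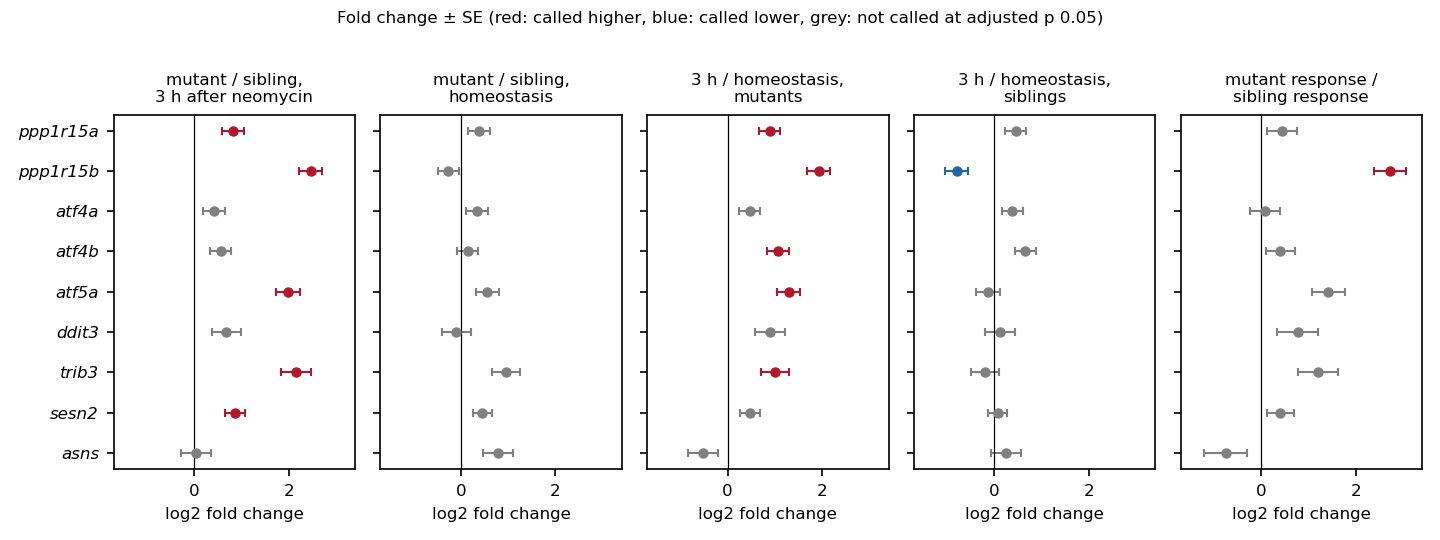
Log2 fold changes (x axes, ± SE) of the 9 tested integrated stress response genes (y axis) in 5 comparisons, with 3 libraries a group. Red points were called higher, blue points lower and grey points neither at an adjusted p under 0.05; ppp1r15b reached 2.46 between treated mutants and treated siblings and −0.80 between treated and untreated siblings.

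Ppp1r15b, the subunit known in mammals as constitutive, had the largest fold change of the members between treated mutants and treated siblings. It had 52.5, 41.5 and 50.3 CPM in treated mutants, against 7.82, 11.6 and 6.83 CPM in treated siblings. Without neomycin it had 14.2, 13.4 and 10.4 CPM in untreated mutants and 15.9, 12.6 and 17.0 CPM in untreated siblings. All 3 treated mutant libraries thus lay above the other 9, and the treated siblings lay below the untreated siblings without overlap. Mutants and siblings overlapped in homeostasis.

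After neomycin, ppp1r15b was 5.50-fold higher in mutants than in siblings (log2 fold change 2.46 ± 0.24 SE, adjusted p = 0.00016). Within mutants, the log2 fold change of treated over untreated larvae was 1.92 ± 0.24 (adjusted p = 0.00022). Both calls held when each of the 12 libraries was left out in turn. Within siblings it was −0.80 ± 0.23 (adjusted p = 0.028), so the gene moved in opposite directions in the 2 genotypes. The fall in siblings lost its call without treated sibling replicate 1 (adjusted p = 0.051) or 3 (0.091), and without untreated sibling replicate 1 (0.053) or 3 (0.094). The difference between both responses was 2.72 ± 0.33 on the log2 scale (adjusted p = 0.010), and ppp1r15b was 1 of 23 genes called for it. That call was lost without treated mutant replicate 1 (adjusted p = 0.053) or 3 (0.051), or untreated mutant replicate 3 (0.056), with log2 values between 2.57 and 3.02 over the 12 omissions. In homeostasis the log2 fold change of mutants over siblings was −0.26 ± 0.23 (adjusted p = 0.70).

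Ppp1r15a, the stress-induced subunit in mammals, was also highest in treated mutants, with a smaller fold change. It had 89.6, 89.0 and 85.5 CPM in treated mutants and 34.8, 69.2 and 45.4 CPM in treated siblings. In homeostasis it had 46.2, 47.9 and 48.7 CPM in untreated mutants and 32.6, 41.5 and 35.3 CPM in untreated siblings. The treated mutants stood above all other libraries, and the untreated mutants above the untreated siblings, while the treated siblings spread across both untreated groups. The highest treated sibling value, 69.2 CPM, came from replicate 2.

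The log2 fold change of ppp1r15a between treated mutants and treated siblings was 0.82 ± 0.22 (adjusted p = 0.037). Its call depended on single libraries: it was lost without treated mutant replicate 1, 2 or 3 (adjusted p = 0.10, 0.076 and 0.098), treated sibling replicate 1 or 3 (0.066 and 0.086), untreated mutant replicate 1 (0.050) or untreated sibling replicate 3 (0.051). Between treated and untreated mutants it was 0.89 ± 0.22 (adjusted p = 0.016), a call lost without untreated mutant replicate 1, 2 or 3 (adjusted p = 0.068, 0.061 and 0.056). In siblings the treatment gave 0.45 ± 0.22 (adjusted p = 0.17), which was 0.09 without treated sibling replicate 2 (adjusted p = 0.73). The untreated mutants exceeded the untreated siblings by 0.38 ± 0.22 (adjusted p = 0.46). The mutant and sibling responses differed by 0.44 on the log2 scale (95% interval −0.18 to 1.05, adjusted p = 0.71).

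The balance of both phosphatase subunits followed from these values. Ppp1r15a made up 64.8 ± 3.00% of the pair's counts in treated mutants and 84.7 ± 2.76% in treated siblings (SD, n = 3 each). In homeostasis its share was 79.0 ± 3.06% in untreated mutants and 70.4 ± 5.39% in untreated siblings. The share was thus lowest where both genes were highest, in treated mutants, and highest in treated siblings, where ppp1r15b was low. For the atf4 pair, atf4a gave 24.1 ± 2.01% of the counts in treated mutants, 26.6 ± 4.19% in treated siblings, 32.6 ± 4.38% in untreated mutants and 29.9 ± 4.78% in untreated siblings. Shares of counts were not corrected for transcript length, so they show how a pair moved between groups and not which gene had more molecules.

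**Figure D2:**
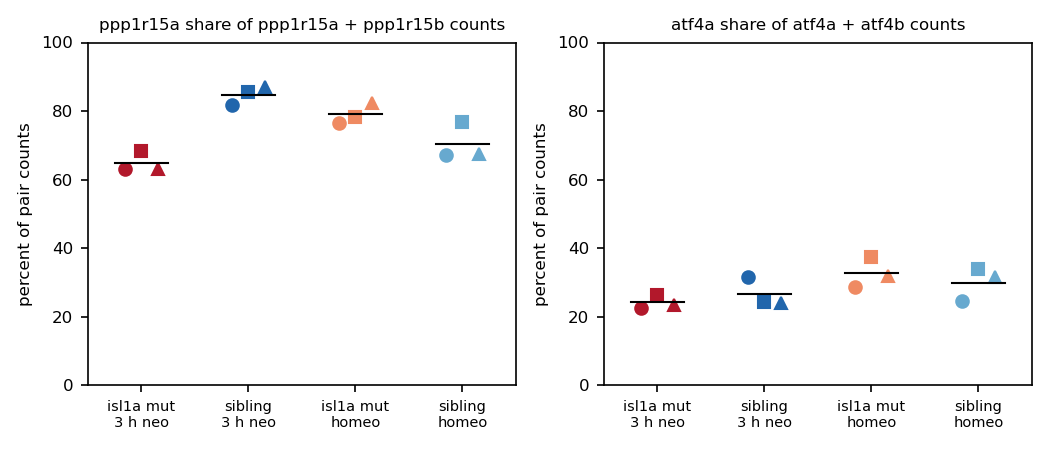
Share of ppp1r15a in the summed counts of ppp1r15a and ppp1r15b, and of atf4a in those of atf4a and atf4b (y axes, percent), by group (x axes). Points are libraries and horizontal lines the mean of 3. The ppp1r15a share averaged 64.8% in treated mutants and 84.7% in treated siblings.

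Among the 4 transcription factors, atf5a had the largest fold change between treated mutants and treated siblings. Atf5, like Atf4, is a bZIP protein whose mRNA is translated preferentially when eIF2α is phosphorylated. Its gene had 34.6, 22.4 and 35.1 CPM in treated mutants, against 7.16, 5.97 and 10.2 CPM in treated siblings. In homeostasis it had 12.3, 12.8 and 12.6 CPM in untreated mutants and 8.37, 7.46 and 9.74 CPM in untreated siblings. The treated mutants were above the untreated mutants, and these above every untreated sibling, while the treated and untreated siblings overlapped.

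Between treated mutants and treated siblings atf5a was 3.94-fold higher (log2 fold change 1.98 ± 0.25, adjusted p = 0.00065), and between treated and untreated mutants its log2 fold change was 1.29 ± 0.25 (adjusted p = 0.0034). Both calls held in all 12 omissions of a library. Siblings showed −0.13 after treatment (adjusted p = 0.75), and untreated mutants exceeded untreated siblings by 0.56 ± 0.24 (adjusted p = 0.28). The difference of the responses was 1.42 ± 0.35 on the log2 scale and did not pass the edgeR test (adjusted p = 0.20). DESeq2 and limma voom called it.

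Atf4b, 1 of the 2 genes for the central transcription factor of the pathway, had 782, 906 and 771 CPM in treated mutants and 406, 771 and 490 CPM in treated siblings. In homeostasis it had 399, 377 and 398 CPM in untreated mutants and 379, 314 and 365 CPM in untreated siblings. Every treated library was above every untreated one. Treated sibling replicate 2, at 771 CPM, reached the treated mutants, and the other 2 treated siblings did not. Atf4b was higher after treatment in mutants by 1.07 ± 0.22 on the log2 scale (adjusted p = 0.0062), a call that held in all 12 omissions. In siblings the value was 0.66 ± 0.22 (adjusted p = 0.052), past the threshold without treated sibling replicate 1 (adjusted p = 0.018) and at 0.30 without replicate 2 (adjusted p = 0.15). With library totals, DESeq2 and limma voom atf4b was called in siblings with all libraries. Treated mutants exceeded treated siblings by 0.56 ± 0.22 with edgeR (adjusted p = 0.13), and limma voom called atf4b higher there. The responses of the 2 genotypes differed by 0.41 (95% interval −0.20 to 1.03, adjusted p = 0.72).

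Its paralog atf4a passed no edgeR test, while limma voom called it higher in treated mutants than in treated siblings (adjusted p = 0.038) and in untreated mutants (adjusted p = 0.047). It had 228, 325 and 236 CPM in treated mutants, 186, 246 and 155 CPM in treated siblings, 161, 225 and 186 CPM in untreated mutants and 123, 160 and 167 CPM in untreated siblings. The means fell in that order, and each neighbouring pair overlapped. The log2 fold changes were 0.43 ± 0.23 between treated mutants and treated siblings (adjusted p = 0.26), 0.47 between treated and untreated mutants (adjusted p = 0.20), 0.38 between treated and untreated siblings (adjusted p = 0.26) and 0.34 between untreated mutants and siblings (adjusted p = 0.55). The treated mutants did not overlap the untreated mutants. The responses differed by 0.08 (95% interval −0.55 to 0.71).

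Ddit3 encodes CHOP, the bZIP factor that acts downstream of Atf4 and is known for promoting cell death under lasting stress. It had 192, 190 and 167 CPM in treated mutants and 78.4, 194 and 70.0 CPM in treated siblings. In homeostasis it had 104, 102 and 89.5 CPM in untreated mutants and 110, 106 and 98.1 CPM in untreated siblings. All treated mutants lay above all untreated libraries. Treated sibling replicates 1 and 3 lay below all untreated libraries, and replicate 2 lay at the level of the treated mutants.

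With edgeR, TMM scaling and all libraries ddit3 passed no test: the log2 fold change was 0.68 ± 0.31 between treated mutants and treated siblings (adjusted p = 0.19), 0.89 ± 0.31 between treated and untreated mutants (adjusted p = 0.070), 0.12 between treated and untreated siblings (adjusted p = 0.82) and −0.09 between untreated mutants and siblings (adjusted p = 0.95). Limma voom called it with all libraries between treated mutants and treated siblings (1.24, adjusted p = 8.8e-05), within mutants (0.85, adjusted p = 0.00016) and, lower, within siblings (−0.48, adjusted p = 0.038), as well as for the difference of the responses (1.33, adjusted p = 0.0069), and DESeq2 called it within mutants (0.94, adjusted p = 0.023). Without treated sibling replicate 2 it passed 4 of the 5 edgeR tests. Treated mutants then exceeded treated siblings by 1.31 ± 0.14 (adjusted p = 0.00018) and untreated mutants by 0.88 (adjusted p = 0.00017). Treated siblings were lower than untreated siblings by −0.55 ± 0.13 (adjusted p = 0.011), and the difference of the responses was 1.43 (adjusted p = 0.0062). The call within mutants also appeared without treated sibling replicate 3 (adjusted p = 0.042).

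**Figure D3:**
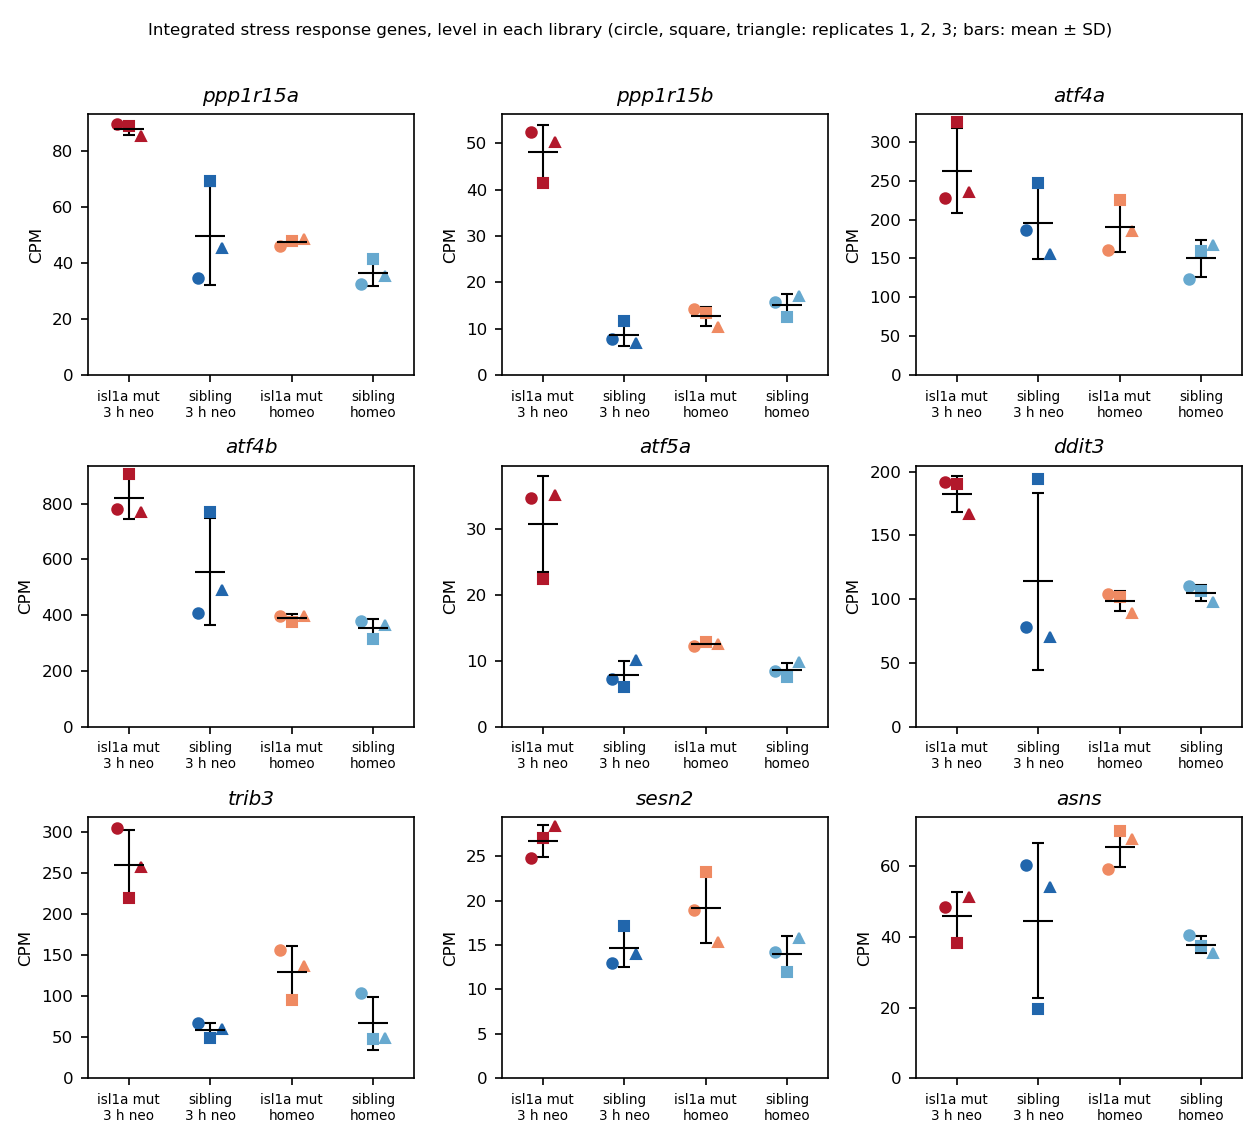
CPM (y axes, from 0) of the 9 detected integrated stress response genes in each library (points), by group (x axes), with the mean ± SD of 3 libraries. The treated mutants lay above every other library for ppp1r15b, ppp1r15a, atf5a, trib3 and sesn2, and a single treated sibling, replicate 2, carried the high ddit3 value of 194 CPM.

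Trib3, a pseudokinase that is a transcriptional target of Atf4 and Ddit3 and damps their action, had 304, 220 and 257 CPM in treated mutants, against 67, 48.9 and 59.7 CPM in treated siblings. In homeostasis it had 156, 95.8 and 137 CPM in untreated mutants and 104, 47.3 and 49.4 CPM in untreated siblings. The treated mutants were above every other library. Untreated mutants and siblings overlapped through untreated sibling replicate 1, at 104 CPM.

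Treated mutants had 4.45-fold more trib3 than treated siblings (log2 fold change 2.15 ± 0.31, adjusted p = 0.0014), a call held in all 12 omissions. Between treated and untreated mutants the log2 fold change was 1.00 ± 0.30 (adjusted p = 0.038), and this call was lost without any 1 of the 6 mutant libraries (adjusted p = 0.13, 0.054 and 0.089 without treated mutant replicates 1, 2 and 3, and 0.063, 0.17 and 0.10 without untreated mutant replicates 1, 2 and 3). Siblings showed −0.20 after treatment (adjusted p = 0.69). Untreated mutants exceeded untreated siblings by 0.95 ± 0.30 (adjusted p = 0.11), with a call without untreated sibling replicate 1 (adjusted p = 0.018). The responses differed by 1.2 ± 0.42 (adjusted p = 0.43).

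Sesn2 encodes Sestrin2, which in mammals senses leucine and holds back mTORC1 signalling. It had 24.8, 27.0 and 28.4 CPM in treated mutants, 13.0, 17.1 and 14 CPM in treated siblings, 18.9, 23.3 and 15.3 CPM in untreated mutants and 14.2, 11.9 and 15.8 CPM in untreated siblings. The treated mutants were above all other libraries, and the remaining neighbours in the order of means overlapped. Treated mutants exceeded treated siblings by 0.86 ± 0.21 on the log2 scale (adjusted p = 0.022), a call lost without treated mutant replicate 1, 2 or 3 (adjusted p = 0.054, 0.053 and 0.088) or treated sibling replicate 3 (0.056). Between treated and untreated mutants the log2 fold change was 0.48 with edgeR (adjusted p = 0.14), and limma voom called sesn2 higher (adjusted p = 0.012). With edgeR it was 0.07 between treated and untreated siblings (adjusted p = 0.85) and 0.45 between untreated mutants and siblings (adjusted p = 0.30). The responses differed by 0.41 (95% interval −0.16 to 0.98).

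Asns, the gene for asparagine synthetase and a textbook Atf4 target, had its highest mean in untreated mutants. It had 48.6, 38.4 and 51.3 CPM in treated mutants, 60.4, 19.5 and 54.1 CPM in treated siblings, 59.23, 69.9 and 67.8 CPM in untreated mutants and 40.5, 37.5 and 35.6 CPM in untreated siblings. The untreated mutants lay above both the untreated siblings and the treated mutants. Treated sibling replicate 2, at 19.5 CPM, was the lowest of all 12 libraries, while the other 2 treated siblings lay above the treated mutants.

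With edgeR and all libraries no comparison of asns passed the test, while limma voom called it in 3 comparisons (adjusted p = 0.0042 in homeostasis, 0.039, lower, within mutants and 0.042 within siblings). Its log2 fold change was 0.04 between treated mutants and treated siblings (adjusted p = 0.95), −0.51 ± 0.32 between treated and untreated mutants (adjusted p = 0.32), 0.24 between treated and untreated siblings (adjusted p = 0.64) and 0.79 ± 0.32 between untreated mutants and siblings (adjusted p = 0.23). Without treated sibling replicate 2, untreated mutants exceeded untreated siblings by 0.77 (adjusted p = 0.0068) and treated mutants were lower than untreated mutants by −0.51 (adjusted p = 0.021). In siblings asns was then higher after treatment by 0.55 ± 0.16 (adjusted p = 0.030), and the responses differed by −1.06 (adjusted p = 0.047). The treated mutants stood at −0.29 to the treated siblings (adjusted p = 0.27).

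Chac1, which degrades glutathione and is a target of the Atf4 arm, had 0 counts in all 12 libraries. A count of 0 allows up to 3 counts per library, or 0.0962 to 0.131 CPM, for counting error only. It was 1 of 1918 genes at 0 in every library, so no response of chac1 could be measured from these counts.

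One library decided several of these values. Without treated sibling replicate 2, the members called higher in treated mutants than in treated siblings numbered 7, with ddit3 and atf4b (0.88 ± 0.14, adjusted p = 0.0023) beside the 5 named above (7.09% of all genes were then called higher and 6.02% lower). After treatment 6 members were higher and 1 lower in mutants (12.9% and 14.3% of all genes), and 1 was higher and 2 lower in siblings (9.2% and 13.1%). For the difference of the responses 2 were higher and 1 lower (0.765% and 0.0752% of all genes). In homeostasis 1 member, asns, was then higher in mutants (3.92% of all genes higher and 5.25% lower), a comparison whose own libraries were all kept. Leaving the library out also changed the shared estimate of the spread, the scaling and the number of genes tested (22615). In the same library neuromast markers summed to 11779 CPM (4712 and 5187 in the other treated siblings), hair cell markers to 6116, liver markers to 3578, red blood cell markers to 506 and leukocyte markers to 488 CPM, each the highest of the treated siblings, as were support cell markers. Its mantle cell markers were the lowest (985 CPM, against 1160 and 1479). Its exocrine pancreas, epidermis and muscle markers were not the highest. The part of these cells in its ddit3, atf4b and asns values was not tested. Ppp1r15b was lower in siblings after treatment with that library and without it (−1.1, adjusted p = 0.0025).

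**Figure D4:**
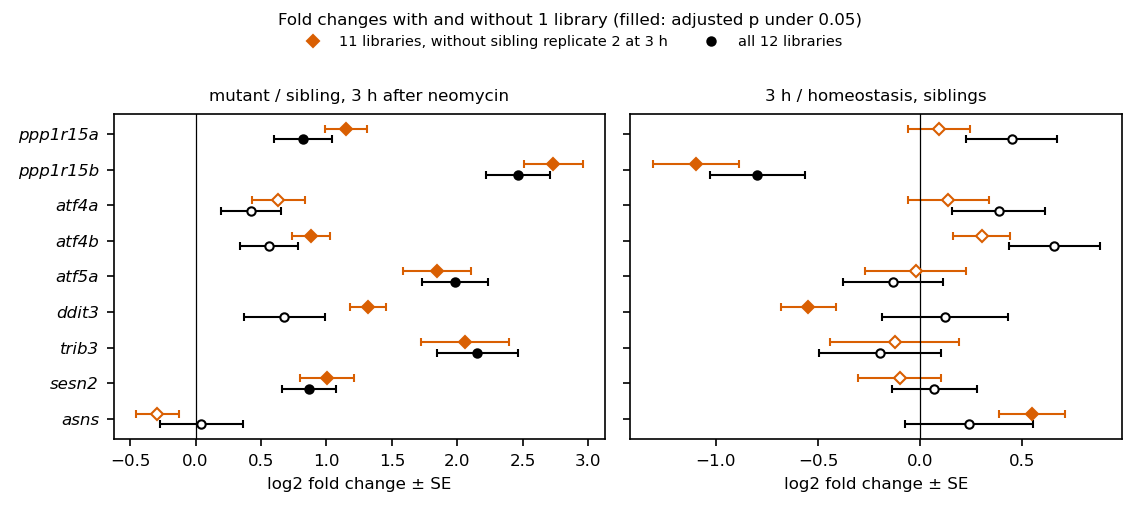
Log2 fold changes (x axes, ± SE) of the 9 tested integrated stress response genes (y axis) with all 12 libraries (black circles) and without treated sibling replicate 2 (orange diamonds), for treated mutants over treated siblings and for treated over untreated siblings. Filled symbols had an adjusted p under 0.05; ddit3 stood at 0.68 with the library and 1.31 without it in the first comparison, and at 0.12 and −0.55 in the second.

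Other genes of the pathway were counted in 7 lists with 89 tested genes. These lists, too, were written with earlier results of these data known, so the shares of all genes beside them are a description. Between treated mutants and treated siblings 13 of the 89 were higher and 3 lower, with a median log2 fold change of −0.10 beside −0.14 over all genes. Over all genes 4.9% were higher and 4.88% lower there. Between treated and untreated mutants 15 were higher and 6 lower (6.95% and 9.56% of all genes), and between treated and untreated siblings 17 were higher and 5 lower (11.2% and 10.8% of all genes). In homeostasis 5 were higher (CEBPB, MTHFD1L, SLC7A5, SLC1A4 and a copy of STC2) and 1 lower (GOT1) in mutants than in siblings (1.85% and 1.72% of all genes), and of these CEBPB alone kept its call in every omission of a library. Leaving out 1 library at a time, 7 of the 16 calls between treated mutants and treated siblings, 13 of the 21 within mutants, 11 of the 22 within siblings and 1 of the 6 in homeostasis held throughout. None of the 89 was called for the difference between both responses with edgeR, where 9 had an unadjusted p under 0.05. DESeq2 called 3 and limma voom 4, where they called 1.85% and 1.72% of all genes, against 0.105% with edgeR.

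No upstream gene was called between the genotypes. Of 5 tested eIF2α kinases, none was called between treated mutants and treated siblings with edgeR, DESeq2 or limma voom, and 1 had an unadjusted p under 0.05. EIF2AK3, the kinase PERK of the endoplasmic reticulum, averaged 36.5 ± 11 CPM in treated mutants, 28.1 ± 8.81 in treated siblings, 47.7 ± 5.57 in untreated mutants and 54.3 ± 10.5 in untreated siblings (SD, n = 3 each). It was lower in siblings after treatment (log2 fold change −0.95, adjusted p = 0.028), a call lost without treated sibling replicate 2 (adjusted p = 0.053) or untreated sibling replicate 2 (0.12) or 3 (0.055). Of 8 subunits of eIF2 and its exchange factor eIF2B, 5 were higher in siblings after treatment (11.2% of all genes) and 2 in mutants (6.95%), and none was called between the genotypes at either time with any of the 3 tools, nor had an unadjusted p under 0.05 with edgeR. The sibling count was 3 without untreated sibling replicate 1 and 2 without replicate 2. The mutant count was 1 without treated mutant replicate 2 or 3 or any untreated mutant library, and 6 without treated sibling replicate 2. EIF2B5, an eIF2B subunit, averaged 81.8 ± 12.4 CPM in treated mutants and 46.8 ± 3.34 in untreated mutants (log2 fold change 0.81, adjusted p = 0.0047).

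Stress transcription factors other than the members were higher in treated mutants than in treated siblings for 6 of 14 tested genes (4.9% of all genes), with a median log2 fold change of 0.61 beside −0.14 over all genes. CEBPB, a bZIP partner of Atf4, averaged 375 ± 71.4 CPM in treated mutants and 54.3 ± 16.5 in treated siblings (log2 fold change 2.79, adjusted p = 0.00016). It was also higher in untreated mutants, with 134 ± 19.2 CPM, than in untreated siblings, with 26.7 ± 8.24 (2.33, adjusted p = 0.00096). ATF3, a stress-induced bZIP factor, averaged 175 ± 20.8 CPM in treated mutants and 39.4 ± 13.4 in treated siblings (2.15, adjusted p = 0.0035). The paralog atf5b averaged 134 ± 19.0 CPM in treated mutants and 68.2 ± 10.5 in treated siblings (0.98, adjusted p = 0.0047), and the C/EBP gene cebpg 113 ± 2.23 CPM in treated mutants and 62.9 ± 2.39 in treated siblings (0.85, adjusted p = 0.0044). These calls held in all 12 omissions. Of the other called genes, 1 held in 3 omissions and 1 in 11. The 6 became 4 without treated mutant replicate 1 and 3 with the groups of the comparison alone. DESeq2 called 7 higher and 2 lower, and limma voom 8 higher. Over all genes, higher and lower together, these tools called 15.8% and 20.2%, against 9.78% with edgeR. In siblings 4 of the 14 were higher after treatment and 1 lower (11.2% and 10.8% of all genes), and the 4 became 2 without untreated sibling replicate 2. The lower one was cebpg (adjusted p = 0.033, a call held in 7 of the 12 omissions). It averaged 88.2 ± 8.50 CPM in untreated siblings and 85.8 ± 6.79 in untreated mutants.

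Some Atf4 target genes for amino acid supply were called after treatment in each genotype. Of 17 tested genes of amino acid synthesis, 5 were higher in mutants (6.95% of all genes) and 4 higher and 1 lower in siblings (11.2% and 10.8% of all genes) after treatment, and most passed no test. The list's median log2 fold change was 0.23 in mutants, beside −0.04 over all genes, and 0.36 in siblings, beside 0.10. CTH (ENSDARG00000074301), the cystathionine gamma-lyase of cysteine synthesis, averaged 338 ± 49.7 CPM in treated mutants, 169 ± 45.6 in treated siblings, 97.9 ± 25.5 in untreated mutants and 77.1 ± 4 in untreated siblings. Its log2 fold change after treatment was 1.79 in mutants (adjusted p = 0.00037) and 1.13 in siblings (adjusted p = 0.0045). MTHFD1L, of mitochondrial one-carbon metabolism, averaged 23.6 ± 5.64 CPM in treated mutants, 6.24 ± 0.66 in treated siblings, 4.84 ± 1.66 in untreated mutants and 1.38 ± 0.84 in untreated siblings. After treatment it rose by 2.29 in mutants (adjusted p = 0.0017) and 2.2 in siblings (adjusted p = 0.0021). PHGDH, the first enzyme of serine synthesis, had log2 fold changes of 1.05 in mutants (adjusted p = 0.0038) and 0.90 in siblings (adjusted p = 0.0070). CBS, a cystathionine beta-synthase gene, had 1.19 in mutants (adjusted p = 0.0040) and 1.1 in siblings (adjusted p = 0.0045), from 11.1 ± 1.68 to 23.9 ± 4.33 CPM in siblings. Its paralog cbsb was the 1 lower in siblings, from 81.0 ± 10.4 to 47.2 ± 10.8 CPM (adjusted p = 0.020). That call was lost without treated sibling replicate 3 (adjusted p = 0.057) or untreated sibling replicate 1 (0.056) or 3 (0.058).

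Between treated mutants and treated siblings, 3 of these 17 genes were higher and 2 lower (4.9% and 4.88% of all genes). The 3 became 1 without treated mutant replicate 2. The lower ones, GOT1 and CTH (ENSDARG00000032206), both lost their call without any 1 treated mutant library or without treated sibling replicate 1 or 3, and 1 of them without any 1 untreated library. MTHFD1L was higher by 1.92 (adjusted p = 0.0083), a call held in all 12 omissions. CTH (ENSDARG00000074301) was higher by 1.00 (adjusted p = 0.019, and 0.060 without treated mutant replicate 2). Of 11 tested amino acid transporter genes 2 were higher in the main edgeR fit, where 4.9% of all genes were. DESeq2 or the replicate block called 4 higher, and limma voom 5. Over all genes, higher and lower together, the main fit called 9.78%, DESeq2 15.8%, the replicate block 12.7% and limma voom 20.2%. The list's median log2 fold change was 0.47, beside −0.14 over all genes. SLC7A5, the large neutral amino acid transporter, averaged 78.2 ± 0.94 CPM in treated mutants and 27.7 ± 6.33 in treated siblings (1.49, adjusted p = 0.0017), held in all 12 omissions. SLC7A3 (ENSDARG00000020645), a cationic amino acid transporter, averaged 84.2 ± 18.2 CPM in treated mutants and 30.8 ± 12.9 in treated siblings (1.45, adjusted p = 0.011, and 0.050 without treated mutant replicate 1). After treatment 3 transporter genes were higher in mutants (6.95% of all genes) and 3 higher and 1 lower in siblings (11.2% and 10.8%). The lower one was slc7a11, with 10.7 ± 4.16 CPM in treated and 25.3 ± 8.27 in untreated siblings (adjusted p = 0.017). That call was lost without treated sibling replicate 3 (adjusted p = 0.057) or untreated sibling replicate 2 (0.083).

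Of 13 tested targets of growth and redox control, 2 were higher in treated mutants than in treated siblings, where 4.9% of all genes were. The list's median log2 fold change was 0.09, beside −0.14 over all genes. SQSTM1, the autophagy receptor p62, averaged 94.3 ± 14.2 CPM in treated mutants and 40.5 ± 11.6 in treated siblings (1.22, adjusted p = 0.0047), held in all 12 omissions. STC2 (ENSDARG00000056680), a secreted glycoprotein gene, averaged 30.4 ± 6.30 CPM in treated mutants and 15.5 ± 3.01 in treated siblings (0.97, adjusted p = 0.011, and 0.062 without treated mutant replicate 3). The same STC2 gene was lower in treated siblings than in untreated siblings, which averaged 55.1 ± 4.28 CPM (−1.83, adjusted p = 7.4e-05). After treatment 1 of the 13 was higher and none lower in mutants (6.95% and 9.56% of all genes). The list's median there was −0.40, beside −0.04 over all genes. In siblings 1 was higher and 1 lower (11.2% and 10.8% of all genes), with a median of −0.16, beside 0.10 over all genes.

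Chaperone and degradation genes of the other arms of the unfolded protein response were lower after treatment in mutants where they were called. Of 22 tested, none was higher and 6 were lower in treated than in untreated mutants, with a median log2 fold change of −0.78. Over all genes 9.56% were lower and the median was −0.04. CALR, the chaperone calreticulin, averaged 150 ± 27.9 CPM in treated mutants and 435 ± 86.9 in untreated mutants (−1.53, adjusted p = 0.0052), held in all 12 omissions. HERPUD1, of endoplasmic reticulum associated degradation, averaged 77.6 ± 23.4 CPM in treated mutants and 180 ± 39.1 in untreated mutants (−1.22, adjusted p = 0.010), a call lost without treated mutant replicate 1 (adjusted p = 0.051) or 3 (0.055). The 6 became 1 without either of those libraries, 2 without untreated mutant replicate 2, and 11 without treated sibling replicate 2. In siblings none of the 22 passed after treatment with edgeR, where 3 had an unadjusted p under 0.05 and the median was −0.27, beside 0.10 over all genes. DESeq2 called none and limma voom 5 lower, and edgeR called 4 lower without treated sibling replicate 2 and 3 without untreated sibling replicate 1. Over all genes, higher and lower together, DESeq2 called 25.3% there, limma voom 28.9% and edgeR with all libraries 22%.

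**Figure D5:**
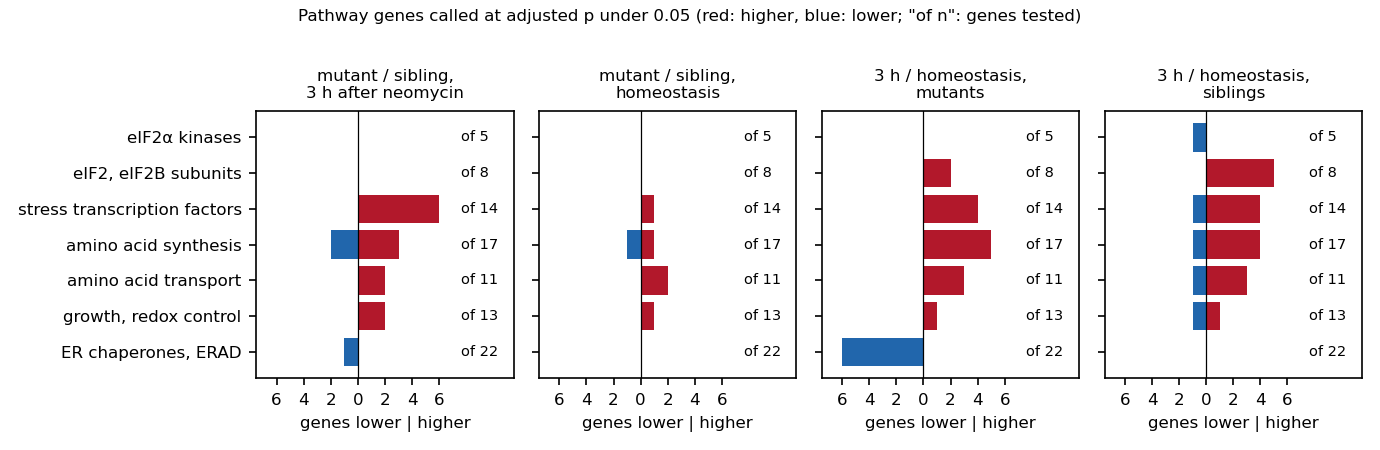
Number of tested genes called higher (bars to the right) or lower (bars to the left) at an adjusted p under 0.05 (x axes) in 7 pathway lists (y axis) and 4 comparisons. Of the stress transcription factors 6 of 14 were higher in treated mutants than in treated siblings, and of the chaperone and degradation genes 6 of 22 were lower in treated than in untreated mutants.

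Markers of several cell types were called in each of the 4 comparisons between groups. Between treated mutants and treated siblings, 4 of 9 red blood cell markers were higher and 5 of 16 hair cell markers lower. Over all genes 4.9% were higher and 4.88% lower. In the same comparison 3 of 8 exocrine pancreas markers were lower (364 to 2012 CPM in sum in treated mutants, 1867 to 11967 in treated siblings). Lower, too, were 2 of 10 liver, 1 of 10 support cell and 1 of 9 neuromast markers. Higher were 2 of 9 mantle cell markers and 1 of 12 muscle markers. Of 9 epidermis markers 2 were higher and 1 lower, and of 11 leukocyte markers 1 was higher and 1 lower. Between treated and untreated mutants, 12 of 16 hair cell markers were lower and 4 of 11 leukocyte markers higher (9.56% and 6.95% of all genes). Lower in that comparison were also 3 of 9 neuromast and 3 of 12 muscle markers. Of 10 support cell markers 5 were lower and 1 higher. Of 9 mantle cell markers 2 were higher and 1 lower, and of 9 epidermis markers 1 was higher and 2 lower. Leukocyte markers summed to 144 to 253 CPM in treated mutants and 86.6 to 126 in untreated mutants. In treated siblings leukocyte markers summed to 230 to 488 CPM. Between treated and untreated siblings, 13 of 16 hair cell markers were lower and 1 higher, and 9 of 11 leukocyte markers were higher. Of all genes 10.8% were lower and 11.2% higher there. Higher were also 4 of 9 red blood cell markers, and lower 4 of 10 support cell and 2 of 9 neuromast markers. Of 9 epidermis markers 4 were higher and 1 lower. In homeostasis 7 of 9 red blood cell, 6 of 12 muscle, 3 of 9 mantle cell and 1 of 9 epidermis markers were higher in mutants (1.85% of all genes). Lower in mutants were 4 of 16 hair cell, 1 of 10 support cell and 1 of 10 liver markers (1.72% of all genes). The support cell list includes isl1a, the mutated gene itself. Its support cell count between mutants and siblings, treated or untreated, is therefore not separate from the mutation. Markers at 0 in a library were TMC1 of hair cells in treated sibling replicate 3, ACTA1 of muscle in treated mutant replicate 1, lyz of leukocytes in untreated mutant replicate 1 and ahsg2 of liver in untreated mutant replicate 3. The part of these cells in the values of the integrated stress response genes was not tested.

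The genes whose profiles lay nearest to each called member were found by the root mean square difference of centred log2 CPM over the 12 libraries, as a description. Only genes with an informative symbol and a mean of at least 1 CPM could be named. Ppp1r15b lay nearest to ANKRD22 (0.335) and F2RL1 (0.373), and atf5a to C1H3orf70 (0.154) and PIK3CB (0.180). Trib3 lay nearest to SLC44A5 (0.267) and ARRDC2 (0.289), ppp1r15a to JOSD2 (0.153) and ABI1 (0.158), atf4b to arf6b (0.0936) and FITM2 (0.109), and sesn2 to UAP1 (0.160) and GATAD2A (0.172). Among the members themselves, ppp1r15a was nearest to atf4b (0.215), atf5a to trib3 (0.401) and ppp1r15b to atf5a (0.480). Many other genes lay closer: among all tested genes these members ranked 32, 119 and 19 in nearness. For sesn2 the nearest member, atf4a, ranked 266.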

How the data were processed

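The authors deposited 1 table of raw read counts per gene for the 12 RNA-seq libraries, with Ensembl gene IDs. Per the labels' protocols, libraries were made from sorted cells with the SMART-Seq v4 kit, a kit without strand marks, so sense and antisense reads of overlapping genes are mixed. The submitters' processing notes name bcl2fastq 2.18, STAR 2.7.3a, RSEM, Bowtie2 and the danRer11 build; the annotation release, the strand setting and the treatment of reads shared by paralogs were not given in the sources used here. Rows that name no gene (4 rows, 28.2% to 35.2% of reads) were left out. Left out were the 18 samples of ATAC-seq, and promoter and protein sequences were not used here.

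A table of gene names gave a symbol to 29201 of the 32520 genes of the count table. The 12 libraries were fitted together, with a mean per group and no other term, by edgeR 4.0.16 (R 4.3.3): filterByExpr over the 4 groups, TMM scaling, quasi-likelihood F-tests (two-sided) and Benjamini-Hochberg adjustment over the 22000 genes tested, with calls at an adjusted p under 0.05. The biological coefficient of variation was 32.3%, which limits what 3 libraries a group can show. CPM are counts scaled by the TMM-adjusted library size, and profiles used log2 CPM with a prior count of 2. SE is the log2 fold change divided by the square root of F, and 95% intervals use it with a normal quantile. Replicates differed from each other beyond counting noise in every group (chi-square per degree of freedom 14.2 to 278). Replicate numbers met the criterion for pairing, every same-number correlation of deviations over 0.1, between treated mutants and treated siblings (0.302, 0.46 and 0.192) and in no other comparison; the labels do not say what a number marks. Alternatives were RLE scaling, library totals, DESeq2 1.42.0, limma 3.58.1 voom with sample weights, no filter on low counts, the groups of a contrast alone, a replicate block and each library left out. The members and lists were chosen with earlier results of these data known. Of 93 pathway names, 76 matched a symbol exactly, 13 without the paralog suffix and 4 not at all. All 10 members are named. Of each pathway list, the text names from up to 4 called genes with the smallest adjusted p per comparison, and some further genes called lower. For each called member it names the 2 nearest profiles among genes with an informative symbol and a mean of at least 1 CPM. Symbols with prefixes common to unnamed genes, such as si: or CR, were left out, which also drops some named genes.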

Additional observations from a re-analysis of the deposited data

Results flagged for a closer look

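Ppp1r15b responded to neomycin in opposite directions in mutants and siblings. Its log2 fold change of treated over untreated larvae was 1.92 ± 0.24 in mutants and −0.80 ± 0.23 in siblings, and the difference, 2.72 ± 0.33, passed the edgeR test of the difference itself (adjusted p = 0.010). All 3 treated mutant libraries were above all 3 untreated mutant libraries, and all 3 treated sibling libraries were below all 3 untreated sibling libraries. The difference lost its call without treated mutant replicate 1 (adjusted p = 0.053) or 3 (0.051) or untreated mutant replicate 3 (0.056). The fall in siblings lost its call without treated sibling replicate 1 (adjusted p = 0.051) or 3 (0.091) or untreated sibling replicate 1 (0.053) or 3 (0.094), and with the sibling libraries alone (0.12). With edgeR and all 12 libraries no other member was called for this difference. DESeq2 called 2 members, ppp1r15b and atf5a, and limma voom 3, these and ddit3. These tools called 1.85% and 1.72% of all genes for the difference, against 0.105% with edgeR.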

How the results depend on the processing

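Of 45 log2 fold changes of single members, most kept their direction and their side of the threshold: over all alternatives 762 values did, 31 lost a call, 36 gained one and 17 changed sign. Members called between untreated mutants and siblings numbered 0, against 2 with limma voom, 1 with the 2 groups alone, 1 with the replicate block, and 0 to 1 with a library left out. Between treated mutants and treated siblings they numbered 5, against 8 with limma voom, 3 with the groups alone, and 3 to 7 with a library left out. In siblings after treatment they numbered 1, against 2 with library totals, 2 with DESeq2, 4 with limma voom, 0 with the groups alone, and 0 to 3 with a library left out. In mutants after treatment they numbered 5, against 9 with limma voom and 3 to 7 with a library left out. For the difference of the responses they numbered 1, against 2 with DESeq2, 3 with limma voom, and 0 to 3 with a library left out. Settings other than those listed here also changed some counts. Over the 7 alternatives other than leaving a library out, atf4b and ddit3 were each called in 2 between treated mutants and treated siblings. After treatment in mutants ddit3 was called in 5 of them, trib3 in 6, asns in 2, and atf4a and sesn2 in 1 each. In the same order, the share of all genes called was 5.5%, 12.7%, 24.3%, 18.9% and 0.0727% with the replicate block. With the groups alone it was 10.7%, 3.03%, 10.9% and 29.8% in the comparisons between groups. A library left out gave 1.31% to 9.18%, 3.97% to 13.1%, 13.6% to 23.9%, 9.61% to 27.2% and 0.0133% to 0.84%. The cause of these shifts was not tested.

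The changes of sign were in values that passed no edgeR test with all libraries, though ddit3 and asns in siblings passed with limma voom (adjusted p = 0.038 and 0.042). For asns between treated mutants and treated siblings (0.04) the log2 fold change was −0.0032 with library totals, −0.15 with limma voom, and −0.29 to 0.35 with a library left out. In siblings after treatment, limma voom gave 0.12 for atf5a and 0.073 for trib3 (−0.40 to 0.22 with a library left out), and no filter gave −0.016 for sesn2 (−0.10 to 0.17). In the same comparison ddit3 was −0.035 with library totals, −0.48 with limma voom (adjusted p = 0.038) and −0.55 to 0.38 with a library left out, and asns −0.092 to 0.55. For the difference of the responses atf4a lay between −0.10 and 0.31.

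Over all groups, 9 of 18 same-number pairs had correlated deviations over 0.1 (−0.0586 to 0.46), with a median of 0.124 for same-number pairs and −0.046 for others, and 9 of 12 libraries correlated best with their own number, a hint of pairing from the data and not from the design. With the replicate block 1, 5, 1, 6 and 1 members were called in homeostasis, between treated mutants and siblings, after treatment in siblings, after treatment in mutants and for the difference; trib3 was then called in homeostasis (adjusted p = 0.017) and ddit3 within mutants (0.041), and no other call on a member changed. At these depths a member at 0 is measured to 3 counts, and differences between groups are limited by the spread of 3 libraries.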
